A study of Gallus gallus with 54 samples.

Results

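The 100 genes described here were those whose messenger RNA level was most uneven between the spleens of indigenous Ethiopian chickens, out of 24881 gene identifiers measured. RNA of spleen, heart and breast muscle was sequenced from a low altitude breed, labelled as adapted to heat, and from a high altitude breed, labelled as lacking that adaptation, with 9 libraries per breed and tissue, 54 in all. The labels give no treatment, age, sex or batch, and they use the codes L1 to L9 and H1 to H9 in all 3 tissues without saying that a code is one bird. Nothing says how the birds of a group were raised or whether tissue was pooled, so the spread between libraries may be partly technical.

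The spleen filters the blood, clears old red blood cells and holds zones of B and T lymphocytes around its small arteries. Chickens lack the lymph nodes of mammals, and the spleen is a main place where their lymphocytes meet antigens carried in the blood. The files do not pair the identifiers with gene names, so no role is given to any gene here, and the defining markers of spleen, blood and neighbouring organs were not looked up. In bulk tissue, fewer cells of a type and less RNA per cell cannot be told apart.

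Levels are in CPM, a gene's counts relative to its library's total after TMM scaling over the 54 libraries, and the spread is the standard deviation (SD) of log2(CPM + 1) over 18 spleens after the mean of each altitude was removed. Of 8968 genes with a spleen mean of at least 5 CPM, 1246 had a larger SD in spleen than in heart and in breast muscle. From these, 411 were left out because their r with the gene ENSGALG00000016400 in spleen was at least 0.5 in size, and 127 because they were steady genes at least 32 times above both other tissues. With 16 genes meeting both criteria, 724 were left, and the 100 with the highest spleen SD were taken. Their SD ran from 2.07 down to 0.827, and the next gene in order, ENSGALG00000031780, stood at 0.826 against 0.827 for the last one taken, ENSGALG00000013548, so the limit falls in a continuous series. Of the 100, 8 had an SD of 1.5 or more, 36 an SD of at least 1 and under 1.5, and 56 an SD under 1. The genes were selected on these spleen levels and SDs, which are given as a description.

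The spleens held 11552919 to 14337559 counts each, the hearts 12373573 to 15204434 and the breast muscles 9305788 to 13106439. The median Spearman correlation of a spleen with the other spleens over the 8968 genes ran from 0.887 to 0.952. It was lowest in H4 (0.887), L8 (0.891) and H8 (0.899). L4 (0.900), H1 (0.902) and H7 (0.904) came next. The main results that rest on H4, L8 and H8 are therefore also given without them.

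The first question was whether the 100 genes rise together in single spleens, as RNA of carried-over tissue would. The genes were chosen for a large spread over these same spleens, which favours genes that peak in an outlying spleen, so the counts by spleen are a description. L8 was the spleen with the highest deviation for 25 of the 100 genes and H8 for 13, together 38, and for 15.0% of all 8968 genes the highest spleen was one of these. The other 62 genes had their highest spleen in 15 other libraries, with 1 to 8 genes each, and in none of the 100 was L5 the highest. Without H4, L8 and H8, the highest spleen was H7 for 19 of the 100 genes and H1 for 17, where it was H7 for 6.77% and H1 for 13.5% of all genes. At least 1 log2 unit above the altitude mean stood 41 genes in L8 and 34 in H8, against 6 to 22 in the other 16 spleens. Over all 8968 genes it was 4.75% in L8, 4.68% in H4, 2.81% in L3 and 2.51% in H8. The rule left out genes that followed ENSGALG00000016400, which was highest in H4 and L3, and this bears on the counts. At least 1 log2 unit below the altitude mean stood 26 genes in H1 and 26 in H4, 23 in L4, and 21 each in L6, L8 and H6. Over all genes it was 1.9%, 1.87%, 2.9%, 0.535%, 1.96% and 0.892% in these spleens. The genes were chosen for large deviations, so more of them than of all genes lie past 1 log2 unit in every spleen, and nothing is read from that excess.

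**Figure D1:**
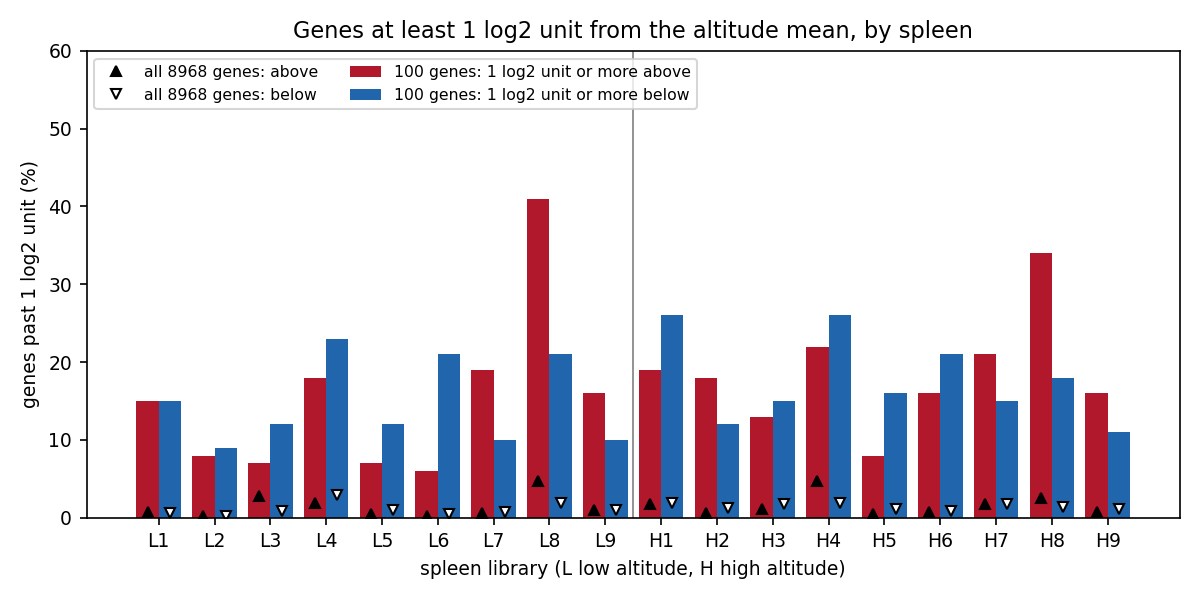
Share of genes at least 1 log2 unit above (red) or below (blue) their altitude mean in each spleen, low altitude libraries left of high altitude ones; bars are the 100 genes and triangles all 8968 genes with a spleen mean of at least 5 CPM. L8 (41 genes above) and H8 (34 above) stand highest, and no spleen is without genes on both sides.

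A single spleen seldom carried most of a gene's spread. The most deviant spleen held a median of 26.3% of the sum of squared deviations over the 100 genes, against 25.3% over all 8968. In 5 of the 100 genes (5%) it held at least 50%, against 1.72% of all genes. One of them was ENSGALG00000010628, named after its values were seen, for which L8 alone held 61.3%. Its level ran from 4.36 through a median of 8.49 to 78.2 CPM in low altitude spleens and from 6.02 through a median of 8.92 to 20.6 CPM in high altitude spleens. All 18 spleens but L8 lay at or under 20.6 CPM. Levels of other genes are given in the same way, as the lowest, the median and the highest of 9 libraries.

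Pairs of genes were compared next. Over 4950 pairs, the share with an r of at least 0.5 in size over the 18 spleens was 15.9%, against 18.6% of the pairs among all 8968 genes. The rule removed the genes that followed ENSGALG00000016400, which bears on this share. That gene ran from 12.1 to 906 CPM over the low altitude spleens, with L3 alone above 92.1 CPM, and from 21.1 to 1030 CPM over the high altitude spleens, with H4 and then H7 (397 CPM) highest. Among the spleens singled out above, it stood at 64.3 CPM in L8 and 192 CPM in H8. Of the 100 genes, 21 still had an r with it of 0.4 or more in size.

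Average linkage on 1 − r, with a height of 0.5, put 52 of the 100 genes into 6 groups of 5 or more, and 48 in no such group. The groups had 20, 8, 7, 6, 6 and 5 genes. They were formed on the same values as the rule, so their coherence in spleen is a description, while their coherence in heart and breast muscle comes from libraries that the spleen SD did not use.

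**Figure D2:**
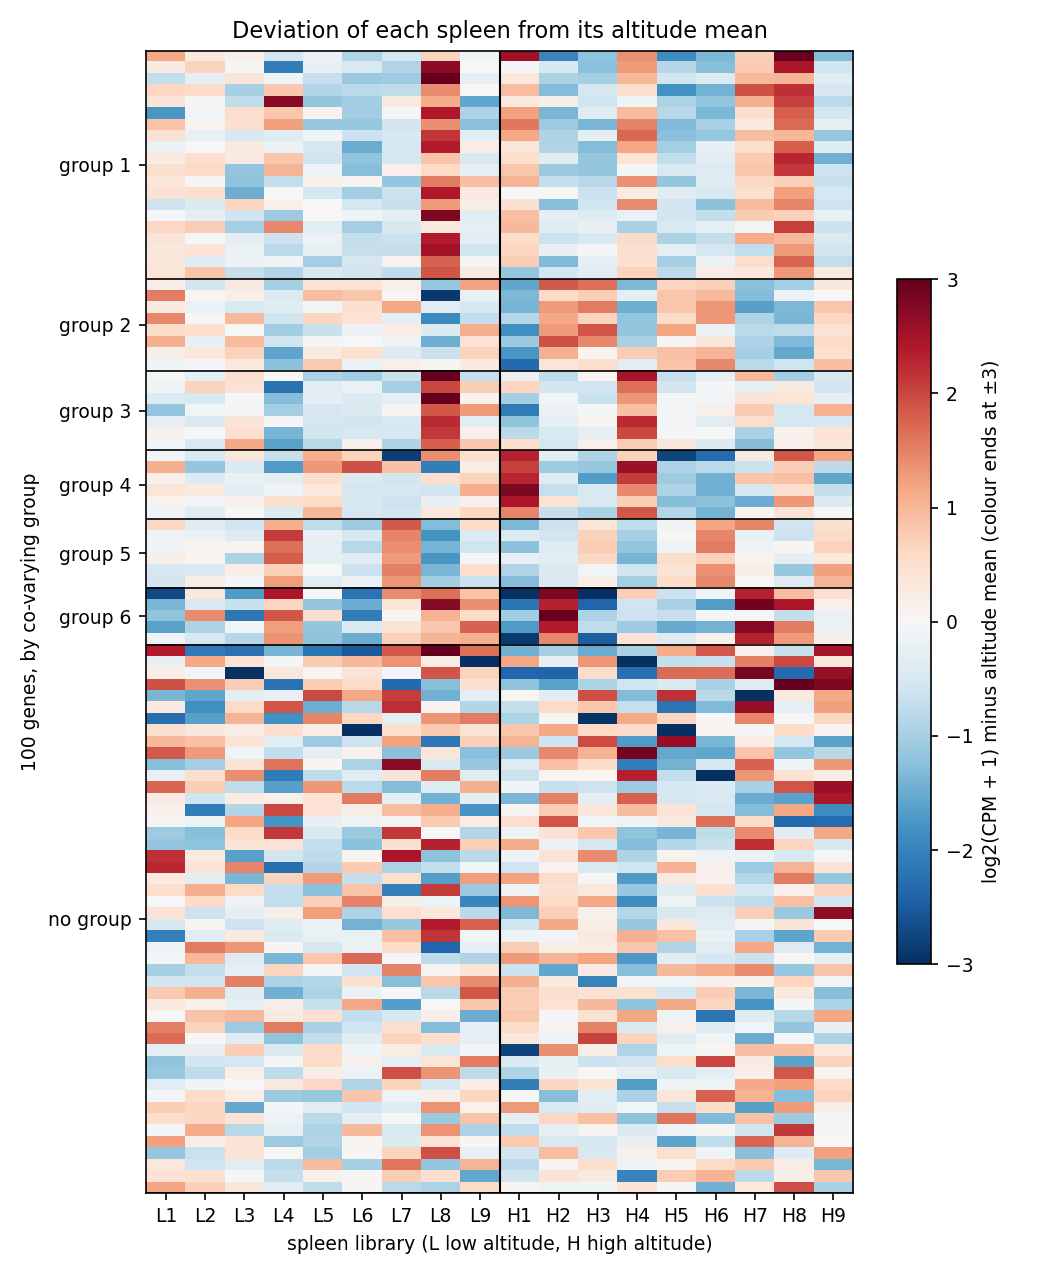
Deviation of log2(CPM + 1) from the altitude mean for the 100 genes (rows, by group and then by SD) in the 18 spleens (columns, L1 to L9 then H1 to H9). Group 1 is red in L8 and H8, group 3 in L8 and H4, group 4 in H1 and H4, and the 48 genes in no group are high in many different spleens.

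Group 1, with 20 genes, was highest in L8 and H8, and its makeup depends on the spleens used. Of the 20 genes, 12 would still be among the 100 without L8, 13 without H8, 14 without L3 and 15 without H4. Leaving out any other single spleen kept 16 to 20 of them. Without H4, L8 and H8 together 6 would remain, and 8 with TMM factors from each tissue alone. Its mean deviation was 1.82 log2 units in L8 and 1.65 in H8. H1, H4 and H7 followed at 0.69, 0.69 and 0.67, and H5 and L6 were lowest at -0.89 and -0.81. In 12 of the 20 genes L8 was the highest spleen and in 7 it was H8. Over all 8968 genes the deviations of L8 and H8 had an r of 0.50, the highest among the 9 same-numbered pairs of spleens. ENSGALG00000008166, the gene closest to the rest of the group (mean r 0.748), ran from 8.74 through 12.1 to 81.8 CPM in low altitude spleens and from 9.12 through 13.3 to 41.2 CPM in high altitude spleens. ENSGALG00000042171 (mean r 0.745) ran from 2.54 through 7.77 to 49.8 CPM and from 4.61 through 10.6 to 46.6 CPM in low and high altitude spleens. Both were highest in L8 at low altitude; at high altitude the first was highest in H7 and the second in H8.

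The genes of group 1 were put together for a high r in spleen, so a lower r in the other tissues is not read as a result. Their median pairwise r was 0.70 in spleen, 0.17 in heart and 0.25 in breast muscle. Among all 8968 genes the median pairwise r was 0.01, 0 and 0.01 in these tissues. Without H4, L8 and H8 that of group 1 was 0.49 in spleen. Some of these genes were low outside spleen, such as ENSGALG00000008166 with means of 0.750 CPM in heart and 0.473 CPM in breast muscle. The part of counting noise in these r was not tested. Taken as a mean over the group, spleen and heart deviations of the same code had an r of 0.78, and spleen and breast muscle 0.35. Without the codes H4, L8 and H8 these were 0.71 and 0.36. The r of these genes with ENSGALG00000016400 ran from -0.19 to 0.49, just under the limit of the rule.

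Group 1 also held genes that are abundant in heart. Of its 20 genes, 15 were most abundant in spleen and 5 in heart. ENSGALG00000037050, named after its values were seen, averaged 19.6 CPM in spleen, 1781 CPM in heart and 162.1 CPM in breast muscle. It ran from 5.60 through 12.1 to 34.2 CPM in low altitude spleens, highest in L8, and from 3.60 through 10.7 to 73.2 CPM in high altitude spleens, highest in H8. ENSGALG00000041344 averaged 27.0 CPM in spleen, 471 CPM in heart and 47.6 CPM in breast muscle, and was highest in L4 (126 CPM) and in H8 (81.4 CPM).

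A set of genes found mainly in heart did not hold its largest share of counts in L8 or H8. The 96 genes of at least 20 CPM in heart and at least 32 times the mean of both other tissues held 0.0233% of the counts in L8 and 0.0297% in H8, within the 0.0187% to 0.0417% seen over the 18 spleens, where L9 was highest. As a share of their mean in heart, these 96 genes stood at 0.243% in L8 and 0.310% in H8, from counts without TMM scaling. By CPM after TMM scaling, ENSGALG00000037050 reached 4.11% of its heart mean in H8 and ENSGALG00000010628 48.2% of its heart mean in L8. The scale of the set differs from that of the single genes, so their shares are not compared. The 124 breast muscle genes chosen in the same way held 0.177% of the counts in L8 and 0.144% in H8, within 0.121% to 0.202% over all spleens, where H7 was highest. L8 came next after H7 and was the highest low altitude spleen, ahead of L1 with 0.161%. Both sets were chosen in part for a low mean over these same spleens, which leaves out genes that rise far in single spleens. Nothing on carried-over tissue is therefore read from their shares, and whether tissue was carried over was not tested. Over the 100 genes, 76 were most abundant in spleen, 20 in heart and 4 in breast muscle. The rule set a minimum level in spleen only and asked for a larger SD there, which favours genes that are low in the other tissues. It also left out steady genes far above both other tissues. This split is therefore a description that the rule bears on.

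One of the 124 breast muscle genes was itself among the 100. ENSGALG00000009050, named after its values were seen, averaged 6.29 CPM in spleen against 557.8 CPM in breast muscle and 4.52 CPM in heart. Its highest spleen was H7 with 18.5 CPM, which is 3.31% of its breast muscle mean, and H7 was also the spleen with the largest share of the 124 genes. At low altitude its highest spleen was L1 with 14.3 CPM, where the 124 genes held 0.161% of the counts.

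Group 2, with 8 genes, ran opposite to group 1, with an r of -0.83 between their mean deviations over 18 spleens. Its mean deviation was lowest in H1 (-1.53), L8 (-1.09), H7 (-1.08) and H8 (-1.02) and highest in H2 (1.19) and H3 (1.06). ENSGALG00000040761 ran from 2.58 through 8.07 to 17.2 CPM in low altitude spleens and from 0.159 through 3.32 to 11.3 CPM in high altitude spleens. It lay under 1 CPM in H1, H4, H7 and H8 and at 2.58 CPM or more in every other spleen. ENSGALG00000037851 ran from 3.34 through 10.4 to 24.1 CPM and from 2.14 through 7.04 to 28.8 CPM at low and high altitude, with L8 lowest at low altitude and H8 lowest at high altitude. All 8 genes were most abundant in spleen. Their median pairwise r was 0.69 in spleen, 0.07 in heart and -0.01 in breast muscle, and 0.72 in spleen without H4, L8 and H8. Levels outside spleen were low for some of them, with means of 0.313 CPM in heart and 0.0859 CPM in breast muscle for ENSGALG00000040761.

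Group 3, with 7 genes, rested on L8 and H4. Its mean deviation was 2.32 log2 units in L8 and 1.62 in H4, and 0.43 or less in the other 16 spleens. ENSGALG00000015132 held 249 CPM in L8 and 20.9 to 81.2 CPM in the other low altitude spleens, and 191 CPM in H4 against 23.4 to 62.6 CPM in the other high altitude spleens. For ENSGALG00000026768 the level was 37.5 CPM in L8 and 9.16 CPM in H4, and at most 4.44 CPM elsewhere. The median pairwise r of the group was 0.71 over 18 spleens and 0.16 without L8 and H4, or 0.14 without H8 as well. In heart it was 0.14 and in breast muscle also 0.14.

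Group 4, with 6 genes, was highest in H1 (mean deviation 2.22) and H4 (1.57). ENSGALG00000021399 ran from 7.59 through 10.9 to 24.6 CPM in low altitude spleens and from 5.61 through 17.0 to 63.3 CPM in high altitude spleens, with H4 and H1 highest. ENSGALG00000016820 ran from 1.82 through 2.92 to 7.91 CPM in low altitude spleens and from 1.72 through 4.35 to 50.8 CPM in high altitude spleens, where H1 was highest and H4 next with 19.0 CPM. The median pairwise r was 0.66 in spleen, 0.49 without H1 and H4, 0.65 without H4, L8 and H8, 0.32 in heart and 0.01 in breast muscle.

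Group 5, with 6 genes, was high in L4 (1.43), L7 (1.47) and H6 (1.29) and low in L8 (-1.44). ENSGALG00000017414 ran from 13.3 through 41.6 to 210 CPM in low altitude spleens and from 15.8 through 28.0 to 92.1 CPM in high altitude spleens. ENSGALG00000008911 ran from 7.65 through 19.9 to 69.8 CPM in low altitude spleens and from 5.02 through 12.2 to 40.6 CPM in high altitude spleens. L4 and L7 were the highest for both genes at low altitude and H6 at high altitude, and L8 was the lowest at low altitude. The median pairwise r was 0.79 in spleen, 0.75 without H4, L8 and H8, 0.37 in heart and 0.02 in breast muscle.

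Group 6 differed from the others in the pairwise r of its genes in the other tissues. Its 5 genes had a median pairwise r of 0.74 in spleen, 0.65 in heart and 0.78 in breast muscle, against -0.01 to 0.37 for groups 1 to 5 in heart and breast muscle. They averaged 1.16 to 12.0 CPM in heart, and some genes of groups 1 and 2 averaged lower there. How far level bears on these r was not tested. The mean deviation was 2.64 log2 units in H2 and 2.04 in H7, and -2.18 and -1.99 in H1 and H3. In the same codes the heart deviated by 0.91, 2.77, -1.29 and -1.72 and the breast muscle by 1.29, 1.82, -1.18 and -0.90. Over the 18 codes, the mean deviation in spleen had an r of 0.88 with that in heart and 0.83 with that in breast muscle, or 0.86 and 0.85 without the codes H4, L8 and H8. Without these spleens the median pairwise r in spleen was 0.77. For groups 2 to 5 the r between the mean deviations over the 18 codes was 0.25, 0.55, 0.59 and 0.29 with heart. With breast muscle it was 0.54, -0.26, 0.43 and -0.33. Without the codes H4, L8 and H8 the r of group 3 with heart was 0.25. Group 6 was singled out after these values were seen, so no test is attached.

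ENSGALG00000043619 (mean r 0.791 in the group) averaged 37.8 CPM over the 18 spleens. Its level ran from 2.83 through 29.8 to 132 CPM in low altitude spleens and from 0.543 through 21.7 to 112 CPM in high altitude spleens. ENSGALG00000033800 ran from 0.947 through 3.01 to 35.2 CPM at low altitude and from 0.0452 through 2.58 to 39.2 CPM at high altitude. The H3 and H7 spleens had 1 and 910 counts, the hearts of these codes 0 and 359, and the breast muscles 1 and 171. By CPM, L8 was the highest low altitude library for this gene in all 3 tissues.

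The code was therefore examined for all 100 genes, as the r between the deviation in spleen and that in another tissue over the 18 codes. Against heart the median r was 0.49 for the 100 genes, 0.29 for the next 100 in the order of SD and 0.29 for all 8968 genes. An r of at least 0.5 was found in 49 of the 100 genes, in 28 of the next 100 and in 22.0% of all. Against breast muscle the median r was 0.25 for the 100, 0.11 for the next 100 and 0.12 for all, and an r of at least 0.5 was found in 23, in 10 and in 9.36% of all. In both tissues at once it was reached by 19 of the 100 genes and by 4.15% of all, and in neither by 47 of the 100 and 72.7% of all. Without the codes H4, L8 and H8, an r of at least 0.5 with heart was found in 43 of the 100, in 34 of the next 100 and in 28.4% of all, and with breast muscle in 23, in 15 and in 10.5% of all. The 2 values at each point share a code, which the labels do not state to be a bird, and the part of counting noise in r was not tested.

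**Figure D3:**
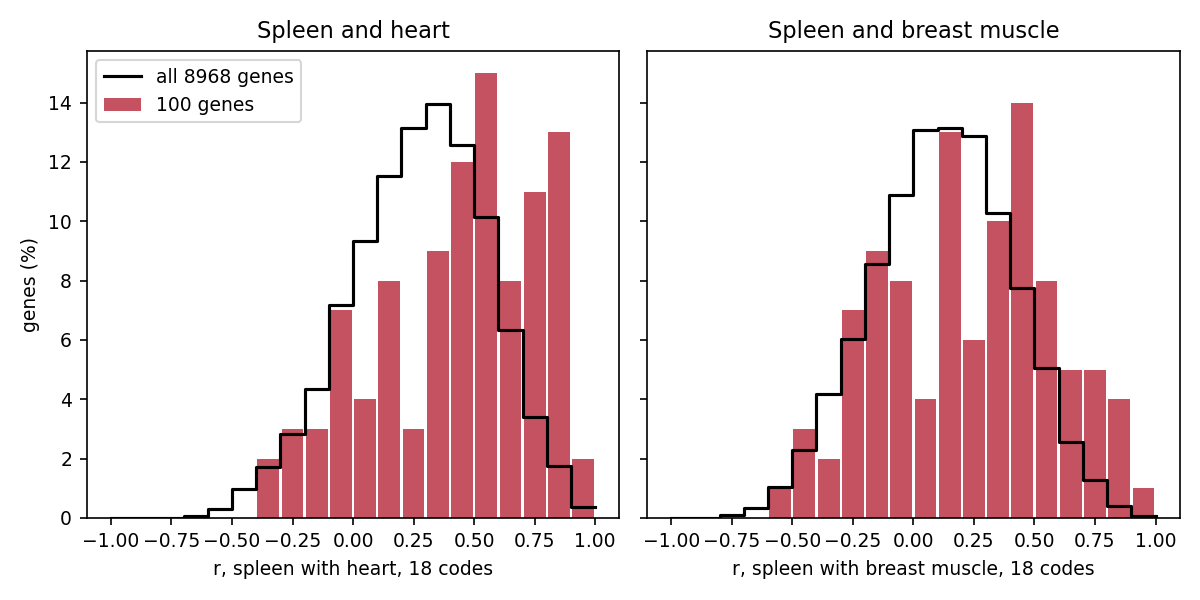
Distribution of r between the deviation in spleen and that in heart (left) or breast muscle (right) over 18 codes, in percent of genes; red bars are the 100 genes and the black line all 8968 genes. The 100 genes reach further to the right, with 49 at 0.5 or more against heart and 23 against breast muscle.

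A high r between tissues was most frequent among the most uneven genes. Of the 20 genes with the highest SD, 16 had an r of at least 0.5 with heart and 12 with breast muscle, against 33 and 11 of the other 80. All 7 of the 100 genes with an r of at least 0.7 with both tissues were among these 20, and 0.836% of all 8968 genes reached that. The spleen deviations that set the order of SD are also 1 side of each r. How far that bears on these counts was not tested. Of the 48 genes in no group, 27 had an r of at least 0.5 with heart, against 22 of the 52 in groups.

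ENSGALG00000032897, the most uneven of all, was present in some codes and nearly absent from others in each tissue. In spleen it ran from 0.0430 through 1.30 to 143 CPM at low altitude and from 0.0905 through 0.912 to 15.8 CPM at high altitude. L8 held 3214 counts in spleen, 399 in heart and 125 in breast muscle, while L6 held 1, 1 and 5. Codes L1, L7, L8 and L9 had 529 or more counts in spleen, and the other 5 low altitude codes 29 or fewer. The same 4 codes had 31 or more counts in heart and 16 or more in breast muscle, and the other 5 had at most 3 and at most 7. At high altitude H5, H6 and H9 had 136 or more counts in spleen, 13 or more in heart and 18 or more in breast muscle. H7 stood between in spleen, with 56 counts, and had 18 counts in heart and 7 in breast muscle. The r with spleen was 0.964 for heart and 0.925 for breast muscle (Spearman's rho 0.929 and 0.798, 18 codes). Without the 2 codes farthest from the median it was 0.950 and 0.870.

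For ENSGALG00000035235 the codes were others. It had 333 or more counts in spleen in L1, L2, L3, L5, L6, L9, H8 and H9, and 73 or fewer in the other 10. Heart held 18 or more counts in 7 of those 8 codes and 6 in L5, and at most 3 in the other 10. The breast muscle held 7 or more in 7 of the 8 codes, 0 in L9, and at most 1 in the other 10. Its r with spleen was 0.877 for heart and 0.851 for breast muscle, and 0.822 and 0.832 without 2 codes.

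**Figure D4:**
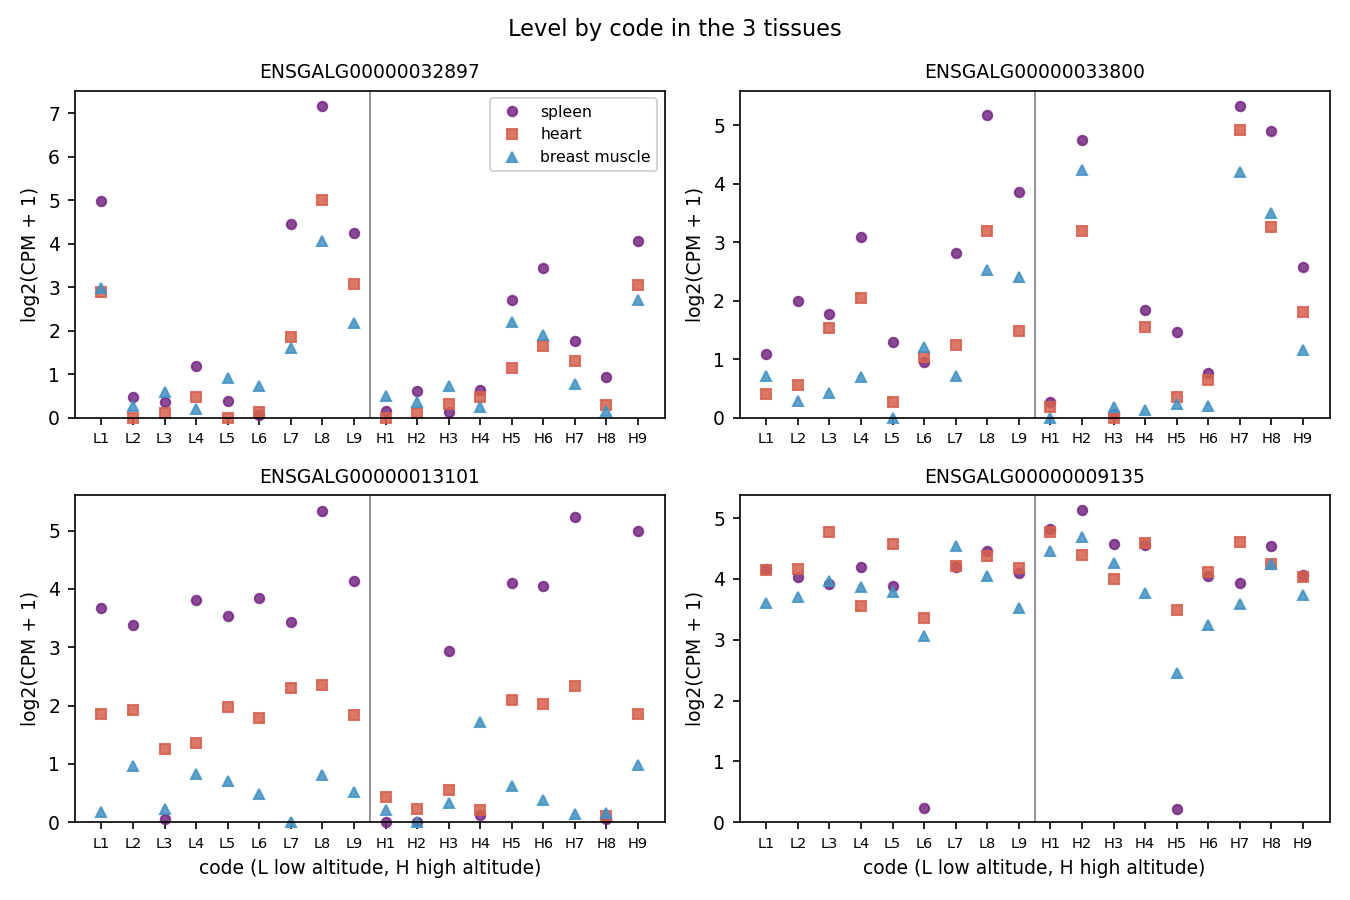
Level as log2(CPM + 1) by code in spleen (circles), heart (squares) and breast muscle (triangles) for 4 of the 100 genes, L1 to L9 left of H1 to H9. ENSGALG00000032897 and ENSGALG00000033800 go up and down together in the 3 tissues, ENSGALG00000013101 is near 0 in 5 spleens, and ENSGALG00000009135 is near 0 in the spleens L6 and H5 only.

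In 9 of the 100 genes at least 1 spleen held 3 counts or fewer, against 16 of all 8968 genes and 0 of the next 100. A spleen near 0 raises the SD on which the genes were ranked, so nothing is read from that excess. For ENSGALG00000013101 these were L3 with 1 count, H1 and H2 with 0, H4 with 2 and H8 with 1. The other 13 spleens held 148 to 889 counts, so no spleen lay between. Heart held 1 to 5 counts in H1, H2, H4 and H8 but 16 in L3, and 4 in H3, where the spleen held 148. All other hearts had 12 or more. In breast muscle the gene was low throughout, with 0 to 24 counts. Its r between spleen and heart was 0.868, or 0.885 without the 2 codes farthest from the median.

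ENSGALG00000009135, named after its values were seen, stood apart in L6 (0.172 CPM) and H5 (0.164 CPM), with 13.7 to 21.0 CPM in the other low altitude spleens and 14.3 to 34.1 CPM in the other high altitude spleens. The same codes were the lowest of the 18 in heart, at 9.27 and 10.3 CPM where the others held 10.8 to 26.4 CPM. In breast muscle they were also lowest, at 7.35 and 4.47 CPM where the others held 8.47 to 24.7 CPM. Without these codes its r between spleen and heart was 0.0259, and between spleen and breast muscle 0.754.

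ENSGALG00000046382, likewise named after its values were seen, held 2 and 3 counts in the spleens H8 and H9 and 26 or more in the other 16. Heart held 0 counts in H8 and H9, and in L9, and breast muscle 0 in L5, L7, H8 and H9 and at most 6 elsewhere. ENSGALG00000042285, at place 3 in the order of SD, showed no such likeness between tissues, with an r of -0.385 between spleen and heart. It held 5.43 CPM in L9 and 6.75 CPM in H4, against 138 to 410 CPM in the other low altitude spleens and 120 to 779 CPM in the other high altitude spleens. In heart it was highest in L4 and L9, at 11.8 and 4.64 CPM, and at most 0.314 CPM in the other 16. In breast muscle it reached at most 0.357 CPM. The 109 genes found mainly in spleen, chosen like the heart and breast muscle sets, were also low in these spleens. They held their lowest shares of counts in H4 (2.18%) and L9 (2.56%), against a median of 4.39%. ENSGALG00000012784 and ENSGALG00000011970, named after their values were seen, were also lowest in L9 at low altitude and in H4 at high altitude. Of the 100 genes, 2 had their highest spleen in L9 and 6 in H4. Whether these falls go with that share was not tested.

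The study's own contrast was low against high altitude. Each altitude is 1 breed with its own labelled heat adaptation, so altitude, breed and adaptation cannot be told apart here. The SD was taken on values centred within altitude, so the ranking by SD did not use the altitude difference. The minimum of 5 CPM was set on the spleen mean over both altitudes, which was not centred. A gene could therefore pass that minimum through 1 altitude, so the choice of genes was not free of the altitude difference. In spleen all 100 genes passed edgeR's filter on low counts. By edgeR's quasi-likelihood test 0 of the 100 had a Benjamini-Hochberg adjusted p under 0.05, as did 0 of 13092 genes tested (0%). Limma-voom called 0 of the 100, as it did of all genes (0%), and DESeq2 called 2 of the 100 where it called 0.153% of all genes. At an unadjusted p under 0.05 stood 13 of the 100, 6 higher and 7 lower at low altitude, where 5.77% of all genes did so. By limma-voom it was 11 of the 100, against 4.98% of all genes. By edgeR with 1 spleen left out, the number ran from 9 to 21. It was 9 without H1, against 4% of all genes, and 9 without L7, against 4.52%. Without L8 it was 21, 7 higher and 14 lower, against 7.76% of all genes. Without H4, L8 and H8 it was 10, against 4.42%. The genes tested as a whole did not have to reach 5 CPM, and some of the 13 reached it only through the altitude where they were high. Nothing is therefore read from these counts against the shares over all genes. The median log2 fold change, low over high, was 0.09 over the 100 genes and 0.00 over all genes tested, with 58 positive and 42 negative among the 100. The median size of the fold change was 0.56 with a median standard error (SE) of 0.51, against 0.13 and 0.19 over all genes.

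**Figure D5:**
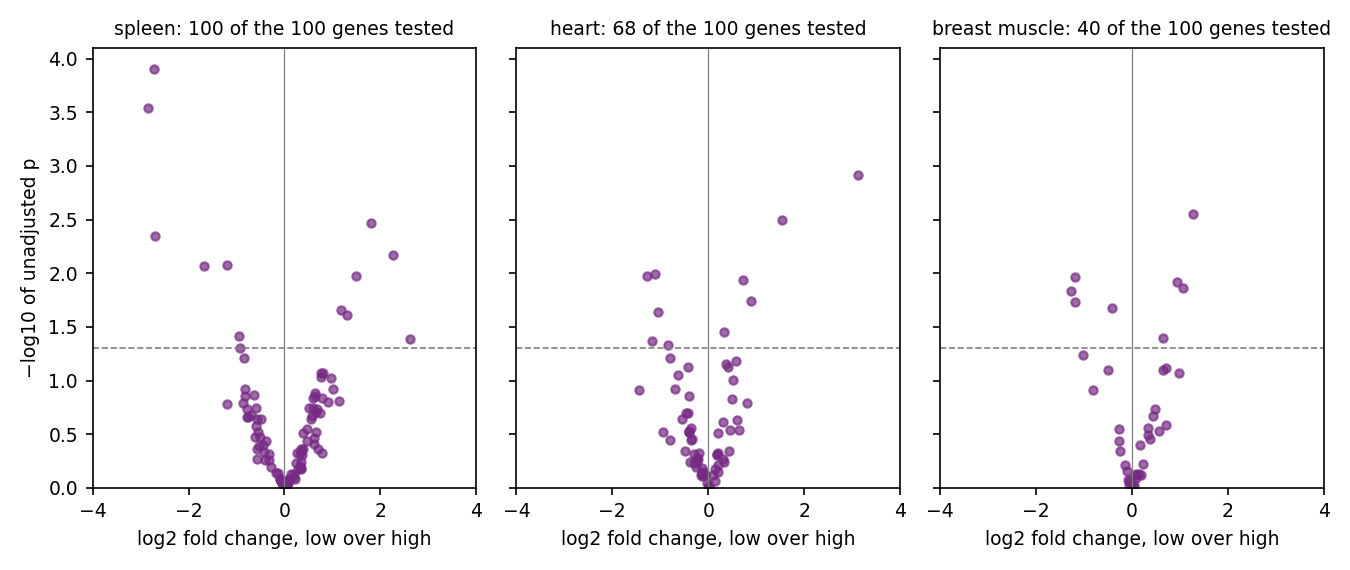
Log2 fold change, low over high altitude (horizontal), against −log10 of the unadjusted p of the model that edgeR fitted across all genes, for those of the 100 genes that were tested in spleen (100), heart (68) and breast muscle (40); the dashed line marks the unadjusted threshold of 0.05. Points lie on both sides of 0 in each tissue, and none passes the adjusted threshold.

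The smallest p in spleen belonged to genes of group 4. ENSGALG00000003242 ran from 0.550 through 1.54 to 2.56 CPM in low altitude spleens and from 1.47 through 4.12 to 36.6 CPM in high altitude spleens. Its log2 fold change was -2.72 (SE 0.57; adjusted p = 0.511 by edgeR and 0.00054 by DESeq2), and none of the 9 low altitude spleens lay above the high altitude median. ENSGALG00000010125 ran from 0.668 through 1.13 to 2.92 CPM at low altitude and from 1.27 through 4.60 to 34.3 CPM at high altitude, with a log2 fold change of -2.84 (SE 0.65; adjusted p = 0.568 by edgeR and 0.00131 by DESeq2). In both genes H1 was the highest spleen, and the groups overlapped. These were the 2 genes called by DESeq2. All their low altitude spleens lay under 5 CPM. Their spleen means of 5.46 and 6.35 CPM thus passed the minimum only through high altitude spleens, and nothing is read from these calls. In the other direction stood ENSGALG00000035662, with 0.786 through 9.65 to 30.9 CPM at low altitude, 0.602 through 2.92 to 4.64 CPM at high altitude and a log2 fold change of 1.81, with an SE of 0.54 and an adjusted p of 0.715 by edgeR. Its spleen mean of 6.23 CPM passed the minimum only through low altitude spleens. ENSGALG00000046342 ran from 9.20 through 21.4 to 87.0 CPM at low altitude and from 0.369 through 1.28 to 29.0 CPM at high altitude, a log2 fold change of 2.26, with an SE of 0.75 and an adjusted p of 0.813 by edgeR. All 9 low altitude spleens lay above its high altitude median, but H4 at 29.0 CPM lay above 6 of them.

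In heart 68 of the 100 genes passed the filter, and 0 of them had an adjusted p under 0.05 by edgeR, limma-voom or DESeq2, where edgeR called 0% of 11872 genes. At an unadjusted p under 0.05 stood 10, against 6.05% of all genes. Without the heart H3 it was 13 of 70 genes tested against 10.9% of all, and without the heart H8 it was 8 of 69 against 3.99%. ENSGALG00000046342 had the smallest p of the 68. Its hearts ran from 0.172 through 4.33 to 22.1 CPM at low altitude and from 0 through 0.285 to 2.61 CPM at high altitude, with a log2 fold change of 3.12, with an SE of 0.83 and an adjusted p of 0.552 by edgeR. This gene also followed the code, with an r between spleen and heart of 0.724, so the values of its 2 tissues are not independent of each other.

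In breast muscle 40 of the 100 passed the filter, and 0 had an adjusted p under 0.05 by edgeR or limma-voom, where edgeR called 0.00988% of 10120 genes. At an unadjusted p under 0.05 stood 8 of the 40, where 18.2% of all genes did so. DESeq2 called 1 of the 40, where it called 4.63% of all genes. That gene, ENSGALG00000031786, which was named after its values were seen, had a DESeq2 adjusted p of 0.0282 and an edgeR adjusted p of 0.105. Its medians in breast muscle were 4.08 CPM at low altitude and 2.21 CPM at high altitude, and its log2 fold change was 1.28 (SE 0.38). In spleen its medians were 17.8 CPM at low altitude and 16.2 CPM at high altitude. Whether a gene's altitude difference itself differed between tissues was not tested.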

How the data were processed

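The deposited files hold whole-number counts of reads per gene identifier, 1 file for each of 54 libraries, as the authors made them. Libraries were made from mRNA with a stranded TruSeq kit, per the labels' protocols. The submitters' processing notes name HISAT2 2.0.4 and featureCounts, besides FastQC, Cuffdiff and Cufflinks, and the build galGal4. Neither the strand setting of the counting nor the treatment of reads with several matches is stated, so genes with near-identical copies or antisense partners are uncertain. None of the 24881 identifiers matched the gene table at hand (25635 genes, GRCg7b), so 22 marker lists were not used.

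The genes and lists were chosen with earlier results of these data known. TMM factors came from all 54 libraries, with a pseudocount of 1. Groups came from average linkage on 1 − Pearson r, formed at height 0.5 with at least 5 genes. Altitude was tested within each tissue, 9 libraries against 9, by edgeR 4.0.16 (quasi-likelihood, robust, filterByExpr, Benjamini-Hochberg adjustment) in R 4.3.3, two-sided and over all genes that passed the filter. DESeq2 1.42.0 and limma-voom (limma 3.58.1) were alternatives, as were other scalings, filters, a replicate block and leaving out libraries. The procedure was tested on simulated data. Genes to be named were the first in the order of SD, those with the highest mean r in each group and those with the smallest altitude p; few identifiers are printed because they carry no names, and others are marked in the text as chosen after their values were seen. The p-values weigh the altitude difference against the spread between libraries, which may be partly technical. Libraries held 9305788 to 15204434 counts.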

Additional observations from a re-analysis of the deposited data

Results flagged for a closer look

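A library was picked out where its gap to the next one in its group of 9 exceeded 0.493 of the group's range; 74 sets of 9 values were examined and 16 were picked out, where chance alone gives about 3.7 (1 in 20). Most sets were chosen for large spread, so more than that number is not read as a result. All values of genes are log2(CPM + 1) in spleen.

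L8 was set apart upward for ENSGALG00000008166 (6.37, next 4.39), ENSGALG00000042171 (5.67, next 3.56), ENSGALG00000026768 (5.27, next 2.33) and ENSGALG00000010628 (6.31, next 3.51). It was also set apart for the mean deviation of group 1 (1.82 log2 units, next 0.20) and of group 3 (2.32, next 0.43). The 100 genes held 0.922% of the counts in L8, and 0.627% in the next low altitude spleen. H4 was set apart upward for ENSGALG00000015132 (7.58, next 5.99) and for the mean deviation of group 3 (1.62, next 0.02).

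Downward, ENSGALG00000009135 stood at 0.23 in L6 (next 3.88) and at 0.22 in H5 (next 3.94). ENSGALG00000042285 stood at 2.68 in L9 (next 7.12) and at 2.95 in H4 (next 6.92). ENSGALG00000013101 stood at 0.06 in L3 (next 3.37), and ENSGALG00000046382 at 1.12 in L4 (next 2.67). The share of counts held by the 124 breast muscle genes was 0.202% in the spleen H7, and 0.156% in the next high altitude spleen.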

How the results depend on the processing

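Which genes are counted among the 100 depends on the processing. Of the 100, 56 were still chosen with TMM factors from each tissue alone, 66 with log2(CPM + 4), 55 by median absolute deviation, 37 with a minimum of 20 CPM, and 61 without H4, L8 and H8, an alternative chosen after seeing the data; leaving out 1 spleen kept 76 (without L8) to 95. The cause was not tested. The number of genes in groups of 5 or more, 52, was 48 to 56 when 1 spleen was left out, 41 with Spearman's rho, 45 and 63 with heights of 0.4 and 0.6, and 45 without H4, L8 and H8. By edgeR 0 of the 100 were called for altitude in spleen, in heart and in breast muscle, and 0 in each when any 1 library was left out; DESeq2 called 2 of the 100 in spleen and 1 in breast muscle. Over all genes edgeR called 0 in spleen, 0 in heart and 1 in breast muscle, and DESeq2 called 20, 22 and 469. In breast muscle no filter, a strict filter and limma-voom each gave 0. With 1 library left out the count over all genes was 0 in spleen, 0 to 1 in heart, and 0 to 455 in breast muscle (455 without H3). Same-numbered low and high altitude spleens had an r of -0.48 to 0.50 over the 8968 genes, above 0.1 in 5 of 9 pairs. The highest was L8 with H8, a pair that had 0.45 in heart and 0.37 in breast muscle. L9 with H9 had 0.48 in spleen, 0.61 in heart and 0.28 in breast muscle, and L3 with H3 was lowest in spleen. What a shared number stands for is not known here. With the replicate block 0 of the 100 were called in each tissue and 0 of all genes in breast muscle. At an unadjusted p under 0.05 the block gave 11 of the 100 in spleen (8 higher and 3 lower at low altitude), against 13 (6 and 7) without it. Over all genes this was 5.64% against 5.77%. In heart the block gave 16 of the 68 genes tested, against 10 without it, where it was 7.84% against 6.05% of all genes. Depth limits genes at 3 counts or fewer, for which a level near 0 cannot be told from 0.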
